A study of Homo sapiens with 4 samples.

Results

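The genes described here make cholesterol and fatty acids or control that synthesis. They are 34 genes of 58735 in the count table, chosen by name and found through their Ensembl identifiers. The names cover 8 genes of the mevalonate pathway, 10 genes that turn squalene into cholesterol, 6 genes that regulate the pathway or carry sterols, 7 genes of fatty acid synthesis and desaturation and 3 target genes of the liver X receptors (LXR). The table held all 34, and each averaged at least 10 counts across the libraries of each cell line. RNA was sequenced from MDA-MB-231 and SUM159 cells, both established human lines of triple-negative breast cancer (TNBC), after 72 h with 1 µM mebendazole (MBZ), an anthelmintic drug that disrupts tubulin, or with DMSO, the solvent used as vehicle control. There was 1 library for each of the 4 conditions, with 24897586 counts for MDA-MB-231 with DMSO and 17143139 with MBZ, and 18708179 counts for SUM159 with DMSO and 18904501 with MBZ. The labels name no genetic change in either line. MDA-MB-231 cells came from ATCC and were grown in DMEM, while SUM159 cells were a gift and were grown in Ham's F12 with less serum and with added insulin and hydrocortisone. Cell line and medium therefore cannot be told apart.

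Markers of the lines were checked first. PGR, the progesterone receptor gene, had 0 counts in all 4 libraries, and ESR1, the estrogen receptor gene, had at most 18. VIM, a mesenchymal intermediate filament gene, had between 20703 and 54409 counts. The epithelial gene KRT19 had 12386 and 6608 counts in the MDA-MB-231 libraries and 1 and 13 in those of SUM159, whereas the epithelial keratin genes KRT8 and KRT18 had at least 4197 counts in every library. EPCAM had at most 190 counts and CDH1 at most 12. The mesenchymal cadherin gene CDH2 had 17 and 10 counts in MDA-MB-231 against 2102 and 1469 in SUM159. Proliferation genes set the SUM159 DMSO library apart. The summed level of 12 G2/M genes was 3499 CPM with DMSO and 1757 CPM with MBZ in MDA-MB-231, and 300.4 and 1379 CPM in SUM159 (CPM, counts scaled to library size within each line). These 12 genes had a median response (log2) of -1.09 in MDA-MB-231, where 11 were at least 1.5-fold lower, and 2.13 in SUM159, where all 12 were at least 1.5-fold higher. In bulk RNA, a difference in some of the cells and one in every cell cannot be told apart. The part of these genes' differences in the values below was not tested.

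Cells make cholesterol from acetyl-CoA through mevalonate and squalene, and the same mevalonate feeds the isoprenoids that anchor proteins in membranes. When sterols in the endoplasmic reticulum run low, the escort protein SCAP carries the transcription factors SREBP-1 and SREBP-2 to the Golgi, where they are cut and freed to switch on genes of sterol and fatty acid synthesis. INSIG1 and INSIG2 hold SCAP back when sterols are plentiful, and LXR, which senses oxidized sterols, switches on genes that move cholesterol out of the cell.

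MBZ treatment for 72 h left these genes without a common direction. HMGCS1, which makes HMG-CoA from acetyl-CoA units, and IDI1, which isomerizes the first isoprenoid unit, were at least 1.5-fold higher with MBZ than with DMSO in both lines. SREBF2, the gene of SREBP-2, and FADS2, a desaturase of polyunsaturated fatty acids, were at least 1.5-fold lower in both. In MDA-MB-231, 8 of the 34 genes (23.5%) were at least 1.5-fold higher, against 18.3% of all genes compared, and 3 (8.82%) were at least 1.5-fold lower, against 15.8%. In SUM159, 3 were higher (8.82%), against 21.5% of all genes, and 7 were lower (20.6%), against 21.7%. Scaling by total counts turned these SUM159 counts into 11 higher, beside 32.8% of all genes, and 3 lower, beside 12.8%. It gave 12 higher and 1 lower in MDA-MB-231, beside 29.1% and 7.57%. With DESeq2 size factors SUM159 had 5 higher, SQLE (log2 0.594) and EBP (0.586) among them, and 6 lower. The share of all genes with those factors is not given here. The shares for genes higher in both lines (5.88%) and lower in both lines (5.88%) stood beside 6.12% and 4.71% of all genes, both near the background. The number higher in both lines became 5 with scaling by total counts (14.7%), beside 11.8% of all genes. The number lower in both lines was 1 with DESeq2 size factors and 0 with total counts, where 1.61% of all genes were lower in both. SREBF2 in SUM159 was at -0.58 (log2) with DESeq2 size factors, and FADS2 in SUM159 was at -0.40 with total counts.

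Over the 34 genes the median response (log2, MBZ over DMSO) was -0.01 in MDA-MB-231 and -0.13 in SUM159, beside -0.02 and -0.03 over all genes compared. Scaling by total counts alone raised the all-gene median in MDA-MB-231 by 0.27 and in SUM159 by 0.30. It turned the small decreases of ACAT2, MVK, ACLY and FADS1 in MDA-MB-231 and of DHCR7 in SUM159 into increases. PMVK, TM7SF2, NSDHL, DHCR7 and INSIG2 in MDA-MB-231 also went from below to above 0. So did MVD, FDFT1, MSMO1, NSDHL and HSD17B7 in SUM159. The counting intervals of these further values, described next, spanned 0 before that change. With 1 library per condition, a difference within a line has no replicate check. Each fold change below carries a 95% counting interval, which covers the error of counting reads and not the spread between cultures. By that interval, 15 of the genes were above and 13 below no change in MDA-MB-231, beside 30.5% and 35.3% of all genes compared. In SUM159, 13 were above (38.2%) and 16 below (47.1%), beside 31.5% and 37.0%.

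**Figure D1:**
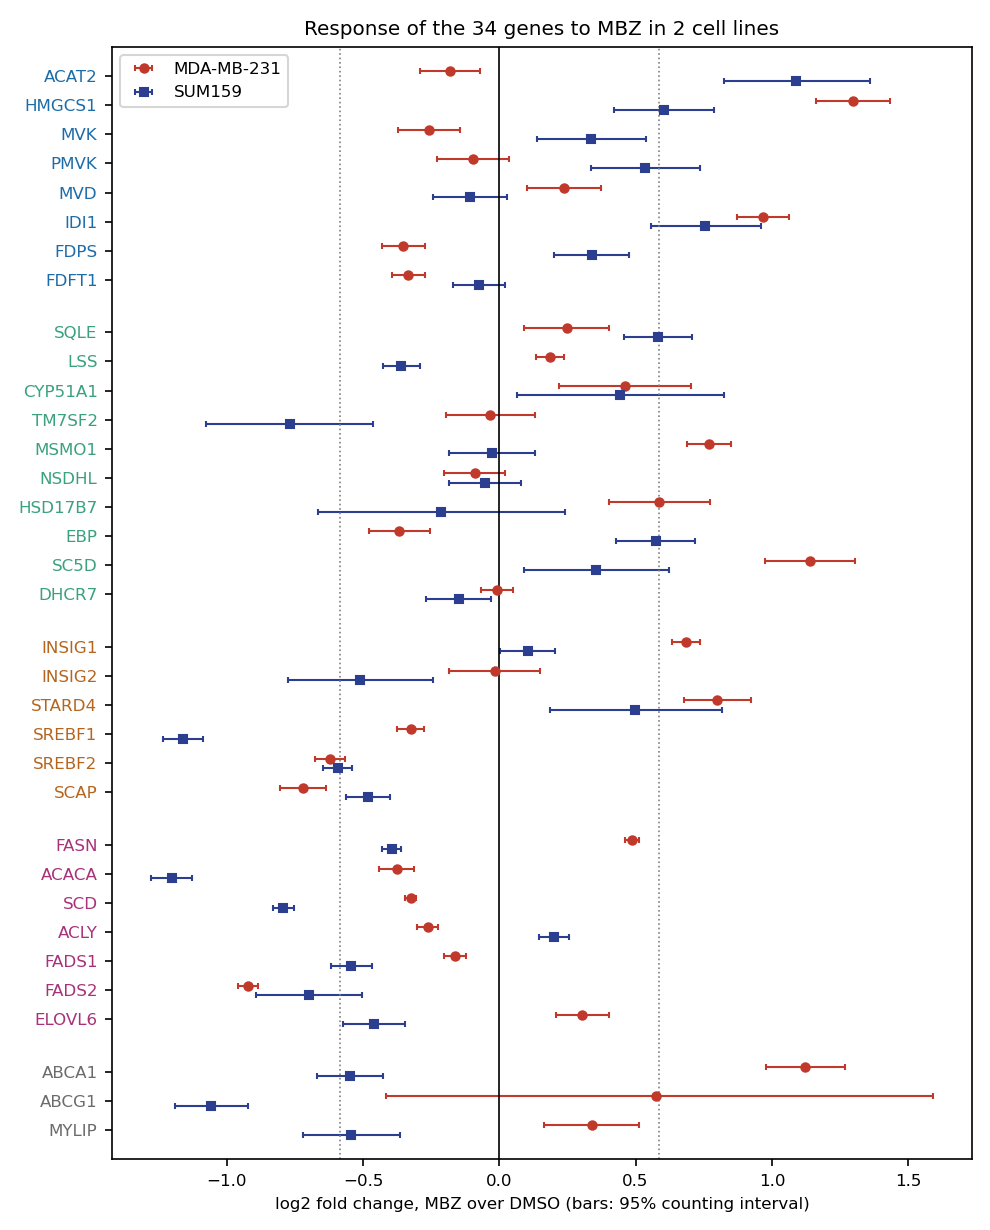
Log2 fold change of each of the 34 genes, MBZ over DMSO, in MDA-MB-231 (red circles) and SUM159 (blue squares), with 95% counting intervals as bars and 1 library per condition. Dotted lines mark a 1.5-fold change. HMGCS1 and IDI1 lie to the right in both lines, SREBF2 and FADS2 lie to the left in both, and ABCA1 lies at 1.12 in MDA-MB-231 and -0.55 in SUM159.

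A change common to both lines was tested on all 4 libraries with the quasi-likelihood test of edgeR, where each line serves as a replicate. None of the 34 genes passed an adjusted p of 0.05, and 1 of 16100 genes tested did (0.00621%). The adjusted p-values of the 34 genes ran from 0.609 to 0.997 in edgeR. At an unadjusted p under 0.05 there were 3 of the 34 genes (8.82%), beside 7.14% of all genes tested. These were HMGCS1 with a log2 fold change of 0.99 ± 0.31 (SE), IDI1 with 0.90 ± 0.28 and FADS2 with -0.77 ± 0.32. DESeq2's Wald test called none of the 34 genes either.

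The mevalonate pathway was described from its first step. ACAT2, the cytosolic thiolase that joins acetyl-CoA units, was at 71.4 CPM with DMSO and 63.0 CPM with MBZ in MDA-MB-231, and at 9.55 and 20.3 CPM in SUM159. Its log2 fold change was -0.18 (95% counting interval -0.29 to -0.07) in the first line and 1.09 (0.82 to 1.36) in the second. ACAT2 was thus the gene of the 34 with the largest increase in SUM159, and it was slightly lower in MDA-MB-231. Its exons share 552 bases with antisense genes, among them TCP1.

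HMGCS1 had the highest fold change of the 34 genes in MDA-MB-231, with 29.3 CPM under DMSO and 72.1 CPM under MBZ. In SUM159 it was at 22.3 and 33.8 CPM. The log2 fold changes were 1.30 (1.16 to 1.43) and 0.60 (0.42 to 0.79). In MDA-MB-231 HMGCS1 stood above 94.1% of all genes compared, and in SUM159 above 79.0%. Its exons share 2497 of 6627 bases with an antisense gene. IDI1 was at 62.3 and 122 CPM in MDA-MB-231 and at 17.8 and 30.1 CPM in SUM159. Its log2 fold changes were 0.97 (0.87 to 1.06) and 0.76 (0.56 to 0.96), and the interval of the difference between the lines, -0.43 to 0.01, spanned 0. Both genes were higher with MBZ in both lines, whereas no other gene of the pathway reached 1.5-fold in both.

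MVK and PMVK, the kinases that phosphorylate mevalonate, had log2 fold changes of -0.26 and -0.10 in MDA-MB-231 and 0.34 and 0.53 in SUM159. MVD, which decarboxylates the product, was at 39.9 and 47.1 CPM in MDA-MB-231 and 49.1 and 45.6 CPM in SUM159. FDPS, which makes farnesyl diphosphate, was at 145 and 114 CPM in MDA-MB-231 and 42.4 and 53.7 CPM in SUM159. For MVK and FDPS the counting intervals lay below 0 in MDA-MB-231 and above 0 in SUM159. FDFT1, squalene synthase, was at 246 and 196 CPM in MDA-MB-231, a log2 fold change of -0.33 (-0.39 to -0.27), and at 98.0 and 93.1 CPM in SUM159, where the interval of -0.17 to 0.02 spanned 0. Over the 8 genes the median response (log2) was -0.14 in MDA-MB-231 and 0.44 in SUM159, or 0.13 and 0.74 when scaled by total counts. The count at least 1.5-fold higher was 2 in the first line and 3 in the second, with 0 lower in either. Over all genes the shares higher were 18.3% and 21.5%, and those lower 15.8% and 21.7%. With total counts MVK (0.64), PMVK (0.84) and FDPS (0.64) were also past 1.5-fold higher in SUM159, beside 32.8% of all genes.

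Of the 10 genes from squalene onward, 3 were at least 1.5-fold higher and 0 lower in MDA-MB-231, while 0 were higher and 1 was lower in SUM159. Of all genes compared, 18.3% were higher and 15.8% lower in the first line, and 21.5% and 21.7% in the second. Scaled by total counts, SQLE (0.88), EBP (0.88), CYP51A1 (0.74) and SC5D (0.66) were past 1.5-fold higher in SUM159. TM7SF2 (-0.47) was then no longer past 1.5-fold lower there, and CYP51A1 (0.73) was also higher in MDA-MB-231. With that scaling 32.8% of all genes were higher in SUM159 and 29.1% in MDA-MB-231. SC5D, the sterol desaturase near the end of the pathway, was at 20.5 and 45.2 CPM in MDA-MB-231 and at 11.5 and 14.7 CPM in SUM159. The log2 fold changes were 1.14 (0.97 to 1.31) and 0.36 (0.09 to 0.62). MSMO1, an oxidase in the removal of methyl groups from the sterol ring, was at 94.3 and 161 CPM in MDA-MB-231 and at 35.96 and 35.3 CPM in SUM159. MSMO1 thus differed by a log2 fold change of 0.77 (0.69 to 0.85) in the first line, and its interval spanned 0 in the second. HSD17B7, a reductase of the same step, was at 19.0 and 28.5 CPM in MDA-MB-231, a log2 fold change of 0.59 that lay just past the 1.5-fold limit of 0.58. It fell short of that limit with DESeq2 size factors, at 0.54, and narrowly with a prior count of 2, and either setting left 7 of the 34 genes higher in MDA-MB-231. In SUM159 it had 81 and 87 counts, and its interval spanned 0. The pseudogene HSD17B7P2 had 53 counts in the MDA-MB-231 library with MBZ, where HSD17B7 had 536, so the split of reads between these copies is uncertain.

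SQLE, the epoxidase of squalene, was at 30.2 and 35.9 CPM in MDA-MB-231 and at 47.0 and 70.3 CPM in SUM159. Its log2 fold change in SUM159, 0.58 (0.46 to 0.71), lay just short of the 1.5-fold limit, as did that of EBP, a sterol isomerase, at 0.57 (0.43 to 0.72). EBP was lower in MDA-MB-231, at -0.37 (-0.48 to -0.26). LSS, which closes the sterol ring, was at 274 and 312 CPM in MDA-MB-231 and at 210.4 and 164 CPM in SUM159, so its intervals lay on opposite sides of 0. TM7SF2, a sterol reductase, was at 30.5 and 29.8 CPM in MDA-MB-231 and at 12.6 and 7.39 CPM in SUM159, where its log2 fold change was -0.77 (-1.08 to -0.46). CYP51A1, the lanosterol demethylase, had log2 fold changes of 0.46 (0.22 to 0.70) and 0.44 (0.07 to 0.83). Its level may be too low, since 2844 of its 4171 exon bases also belong to a second annotated gene on the same strand, and reads that fall in both were not counted for either. NSDHL, a dehydrogenase of the demethylation step, had intervals that spanned 0 in both lines. DHCR7, the last reductase, was at 232 and 230.4 CPM in MDA-MB-231 and at 64.3 and 57.9 CPM in SUM159, where its log2 fold change was -0.15 (-0.27 to -0.03).

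Genes that control the pathway did not move together. INSIG1, the sterol-regulated retention factor, was at 249 and 399.8 CPM in MDA-MB-231 and at 84.1 and 90.4 CPM in SUM159. The log2 fold changes were 0.68 (0.63 to 0.73) and 0.10 (0.00 to 0.20). INSIG2, its relative, was at 28.6 and 28.3 CPM in MDA-MB-231 and at 15.1 and 10.6 CPM in SUM159, so it was lower in SUM159 by a log2 fold change of -0.51 (-0.78 to -0.25). STARD4, a cytosolic carrier of sterols, was at 40.8 and 71.1 CPM in MDA-MB-231 and at 7.89 and 11.2 CPM in SUM159, with log2 fold changes of 0.80 (0.68 to 0.92) and 0.50 (0.19 to 0.82). STARD4-AS1, on the opposite strand, had 126 and 123 counts in SUM159, where STARD4 had 133 and 234, and the strand setting of the counting is not given in the sources used here.

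SREBF2 was lower in both lines, at 336 CPM with DMSO and 219 CPM with MBZ in MDA-MB-231 and at 398 and 264 CPM in SUM159. The log2 fold changes were -0.62 (-0.67 to -0.56) and -0.59 (-0.65 to -0.54), both just past the 1.5-fold limit. Of its 8053 exon bases, 731 also belong to the antisense gene SREBF2-AS1. SREBF1, the gene of SREBP-1, was at 347 and 277 CPM in MDA-MB-231 and at 255 and 114 CPM in SUM159. The log2 fold changes of SREBF1 were -0.33 (-0.38 to -0.27) and -1.16 (-1.23 to -1.09). SCAP was at 154 and 93.5 CPM in MDA-MB-231, a log2 fold change of -0.72 (-0.80 to -0.64), and at 160.1 and 115 CPM in SUM159, a log2 fold change of -0.48 (-0.56 to -0.40). The genes of both SREBPs and of their escort were lower with MBZ in both lines beyond counting error. They were among 7 genes with intervals below 0 in both lines, together with ACACA, SCD, FADS1 and FADS2. Another 7 had intervals above 0 in both, namely HMGCS1, IDI1, SQLE, CYP51A1, SC5D, INSIG1 and STARD4. The shares of all genes with intervals on one side in both lines are not given here. Per length, SREBF1 stood at 1.01 times SREBF2 with DMSO and 1.24 times with MBZ in MDA-MB-231, and at 0.626 and 0.423 times in SUM159.

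**Figure D2:**
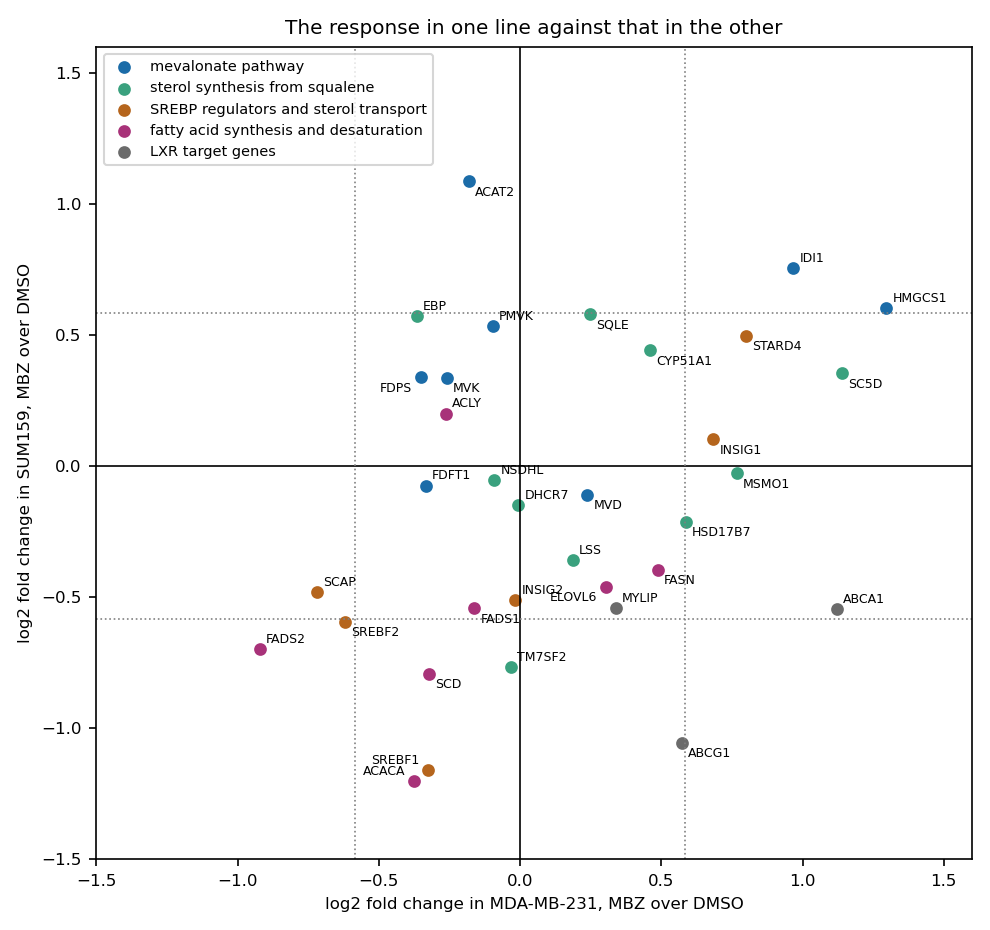
Log2 fold change, MBZ over DMSO, of the 34 genes in MDA-MB-231 (horizontal axis) and SUM159 (vertical axis), with 1 point per gene coloured by role and dotted lines at 1.5-fold. 7 genes lie above 0 in both lines and 12 below 0 in both, while 9 lie above 0 in MDA-MB-231 and below 0 in SUM159.

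Promoter sequence was examined because HMGCS1, MSMO1, INSIG1, STARD4 and SREBF2 are known as sterol-regulated genes and SREBF2 was lower where the others were higher in MDA-MB-231. Windows from 250 bases before to 50 bases after each start were found for 29 of the 34 genes (39 windows, RefSeq, GRCh38.p14; not ACAT2, FDFT1, SQLE, FASN or ABCG1). The search used CCAAT, bound by NF-Y, the SREBP motif TCACNCCAC, its last 8 letters CACNCCAC, which were added after the first search, and the E-box CACGTG, on both strands. The 9-letter SREBP motif includes the 8-letter one. CCAAT was found for 21 of the 29 genes (72.4%), against 39.7% of 27305 genes with windows. CACNCCAC was found for 7 (24.1%), against 7.05%, TCACNCCAC for 1 (3.45%), against 1.39%, and CACGTG for 5 (17.2%), against 8.77%. Some genes have several windows and so more chances of a match. A match is a description of the letters and not of binding. The stretches below, each 90 bases long and 5′ to 3′ on the gene's own strand, lie from 185 to 96 bases before the start for HMGCS1, 224 to 135 for MSMO1, 250 to 161 for INSIG1, 215 to 126 for STARD4 and 191 to 102 for SREBF2. They hold the most matches of CCAAT and CACNCCAC in their window, with capitals marking those letters on either strand, so that ATTGG is CCAAT on the other strand and GTGGCGTG is CACNCCAC on the other strand.
HMGCS1 (chr5:43313508-43313597, minus strand): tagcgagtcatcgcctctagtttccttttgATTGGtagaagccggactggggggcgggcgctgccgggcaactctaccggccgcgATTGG
MSMO1 (chr4:165327445-165327534, plus strand): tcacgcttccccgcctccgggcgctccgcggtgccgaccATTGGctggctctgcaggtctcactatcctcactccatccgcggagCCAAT
INSIG1 (chr7:155297628-155297717, plus strand): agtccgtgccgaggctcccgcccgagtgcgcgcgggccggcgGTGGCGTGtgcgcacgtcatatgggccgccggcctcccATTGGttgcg
STARD4 (chr5:111512661-111512750, minus strand): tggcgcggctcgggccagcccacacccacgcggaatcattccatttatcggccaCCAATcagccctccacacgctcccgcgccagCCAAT
SREBF2 (chr22:41832914-41833003, plus strand): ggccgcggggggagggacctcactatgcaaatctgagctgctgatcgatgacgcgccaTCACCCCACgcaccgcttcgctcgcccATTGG
The INSIG1 and SREBF2 stretches hold 1 match to CACNCCAC and 1 to CCAAT, and those of HMGCS1, MSMO1 and STARD4 hold 2 to CCAAT and 0 to CACNCCAC. In SREBF2 the capitals include the full 9-letter motif. INSIG1 was higher and SREBF2 lower with MBZ in MDA-MB-231, and a link between these motifs and the responses was not tested. The stretch of HMGCS1 shares 5 bases with an exon of HMGCS1 itself in GENCODE, that of SREBF2 lies within an exon of the antisense gene SREBF2-AS1, and the other stretches overlap no annotated exon.

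**Figure D3:**
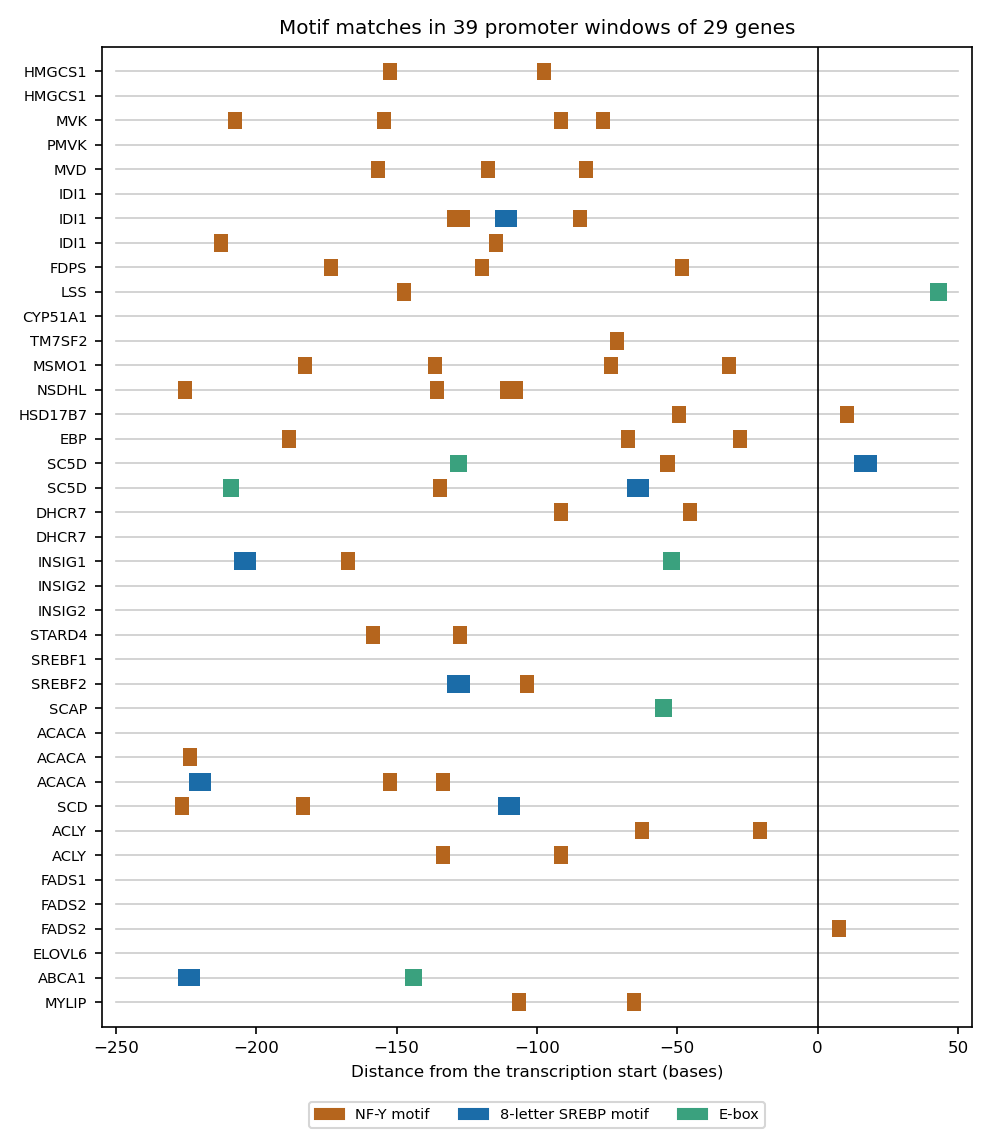
Positions of the NF-Y motif (brown), the 8-letter SREBP motif (blue) and the E-box (green) in 39 promoter windows of 29 genes, with distance from the transcription start in bases on the horizontal axis. A gene with several starts has a row for each, and 21 of the 29 genes have at least 1 NF-Y motif.

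Of the 7 fatty acid genes, 5 were below 0 by value in MDA-MB-231 and 6 in SUM159, beside 51.1% and 51.9% of all genes compared. Scaled by total counts, 3 were below 0 in MDA-MB-231 and 6 in SUM159, beside 32.8% and 34.7%. FADS2 was at 874 CPM with DMSO and 462 CPM with MBZ in MDA-MB-231, and at 29.9 and 18.4 CPM in SUM159. Its log2 fold changes were -0.92 (-0.96 to -0.88) and -0.70 (-0.89 to -0.50), the lowest of the 34 genes in MDA-MB-231. FADS1, its neighbour and partner in making polyunsaturated fatty acids, was at 481 and 430 CPM in MDA-MB-231 and at 187 and 128 CPM in SUM159, with log2 fold changes of -0.16 and -0.54. FADS1 and FADS2 lie on opposite strands and share 490 exon bases, and FADS2 shares 49 with FEN1 on its own strand.

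ACACA, acetyl-CoA carboxylase, the committed step of fatty acid synthesis, was at 225 and 173 CPM in MDA-MB-231 and at 241 and 105 CPM in SUM159. Its log2 fold change of -1.20 (-1.28 to -1.13) was the lowest of the 34 genes in SUM159, against -0.38 (-0.44 to -0.31) in MDA-MB-231. SCD, the desaturase that makes monounsaturated fatty acids, was at 2196 and 1754 CPM in MDA-MB-231 and at 723 and 418 CPM in SUM159. The log2 fold changes of SCD were -0.32 (-0.34 to -0.30) and -0.79 (-0.83 to -0.75). Both genes were lower in both lines, and further so in SUM159.

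FASN, the synthase that builds palmitate, moved the other way in MDA-MB-231, where it was at 961 and 1347 CPM. In SUM159 it was at 779 and 592 CPM. Its log2 fold changes were 0.49 (0.46 to 0.51) and -0.40 (-0.43 to -0.36). ELOVL6, which lengthens palmitate, followed the same pattern, with log2 fold changes of 0.30 (0.21 to 0.40) and -0.46 (-0.57 to -0.35). ACLY, which makes cytosolic acetyl-CoA from citrate, showed the opposite pattern, at 590.5 and 492 CPM in MDA-MB-231 and at 282 and 325 CPM in SUM159. Over the 7 genes the median response (log2) was -0.26 in MDA-MB-231 and -0.54 in SUM159, or 0.0035 and -0.24 when scaled by total counts. At least 1.5-fold lower were 1 gene in the first line and 3 in the second, with 0 higher. Over all genes 15.8% and 21.7% were lower and 18.3% and 21.5% higher. With total counts FASN (0.75) was past 1.5-fold higher in MDA-MB-231, beside 29.1% of all genes. SCD (-0.49) and FADS2 (-0.40) were then no longer past 1.5-fold lower in SUM159, where 12.8% of all genes were.

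Of the LXR target genes, ABCA1 and ABCG1 differed more between the lines by value than any other of the 34 genes, while MYLIP did not. ABCA1, a cholesterol exporter, was at 26.6 CPM with DMSO and 57.9 CPM with MBZ in MDA-MB-231, a log2 fold change of 1.12 (0.98 to 1.27). In SUM159 it was at 71.7 and 49.1 CPM, a log2 fold change of -0.55 (-0.67 to -0.42). The difference of these responses was -1.67 (-1.85 to -1.48). ABCG1, a second exporter, had 17 and 21 counts in MDA-MB-231, too few to show a change, since its interval ran from -0.42 to 1.59. In SUM159 ABCG1 was at 72.2 and 34.7 CPM, a log2 fold change of -1.06 (-1.19 to -0.92). MYLIP, a ubiquitin ligase that degrades lipoprotein receptors, was at 23.5 and 29.7 CPM in MDA-MB-231 and at 33.9 and 23.3 CPM in SUM159. All 3 genes were lower in SUM159, and ABCA1 and MYLIP were higher in MDA-MB-231 beyond counting error.

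Over the 34 genes the response in SUM159 minus that in MDA-MB-231 had a counting interval above 0 for 10 genes and below 0 for 19, against 31.8% and 34.5% of all genes compared in both lines. As shares of the 34 genes these were 29.4% and 55.9%. The median difference was -0.36, beside -0.04 over all genes. For 10 genes (29.4%) the intervals of the lines lay on opposite sides of 0, against 20.01% of all genes. Scaled by total counts this held for 8 genes (23.5%), against 19.1%, and 5 genes were the same, namely FDPS, FASN, ELOVL6, ABCA1 and MYLIP. The 19 included 6 of the 10 genes from squalene onward, 5 of the 7 fatty acid genes and all 3 LXR target genes, while 5 of the 8 mevalonate genes were among the 10. None of the 34 genes was at least 1.5-fold higher in one line and at least 1.5-fold lower in the other, against 6.04% of all genes. ABCG1, whose MDA-MB-231 value of 0.57 lay just below 0.58, met this limit with TMM over all 4 libraries (0.59) and with total counts (0.84), but not with DESeq2 size factors (0.52). The difference of responses leaves no residual degrees of freedom and was not tested.

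Levels were compared between the lines in the same edgeR fit, with the treatments standing in for replicates. At an adjusted p under 0.05, 14 of the 34 genes (41.2%) were lower in SUM159 than in MDA-MB-231, against 9.85% of all genes tested. Only ABCG1 (2.94%) was higher, against 11.6%. The median log2 difference over the 34 genes was -0.92, beside 0.01 over all genes tested. By value, 25 of the 34 (73.5%) were lower in SUM159 with DMSO and with MBZ alike, beside 39.1% of all genes tested. Cell line and growth medium cannot be told apart in this comparison.

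The lower genes included 9 of the 18 enzymes of cholesterol synthesis. ACAT2, MVK, IDI1, FDPS and FDFT1 were lower among the mevalonate genes, and TM7SF2, MSMO1, HSD17B7 and DHCR7 among the later enzymes. ACAT2 had a log2 difference of -2.16 ± 0.39 (SE, edgeR adjusted p = 0.0108), with -2.84 between the DMSO libraries and -1.59 between those with MBZ. IDI1 differed by -1.82 ± 0.28 (edgeR adjusted p = 0.00662), DHCR7 by -1.82 ± 0.29 (edgeR adjusted p = 0.00743) and HSD17B7 by -2.28 ± 0.42 (edgeR adjusted p = 0.0116). HMGCS1 did not pass, at -0.65 ± 0.31 (edgeR adjusted p = 0.185), nor did SQLE, which was higher in SUM159 by value, at 0.90 ± 0.28 (edgeR adjusted p = 0.0650).

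Among the regulators, INSIG1 at -1.76 ± 0.33 (edgeR adjusted p = 0.0118) and STARD4 at -2.43 ± 0.31 (edgeR adjusted p = 0.00317) were lower in SUM159. SREBF2, at 0.35 ± 0.31 (edgeR adjusted p = 0.466), and SCAP, at 0.27 ± 0.29 (edgeR adjusted p = 0.543), did not pass. FADS2 differed most of the lower genes, at -4.66 ± 0.37 (edgeR adjusted p = 0.000600), or 25.3-fold lower in SUM159. SCD differed by -1.74 ± 0.44 (edgeR adjusted p = 0.0328) and FADS1 by -1.46 ± 0.33 (edgeR adjusted p = 0.0224). ABCG1 was 57.8-fold higher in SUM159, at 5.85 ± 0.52 (edgeR adjusted p = 0.000929).

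**Figure D4:**
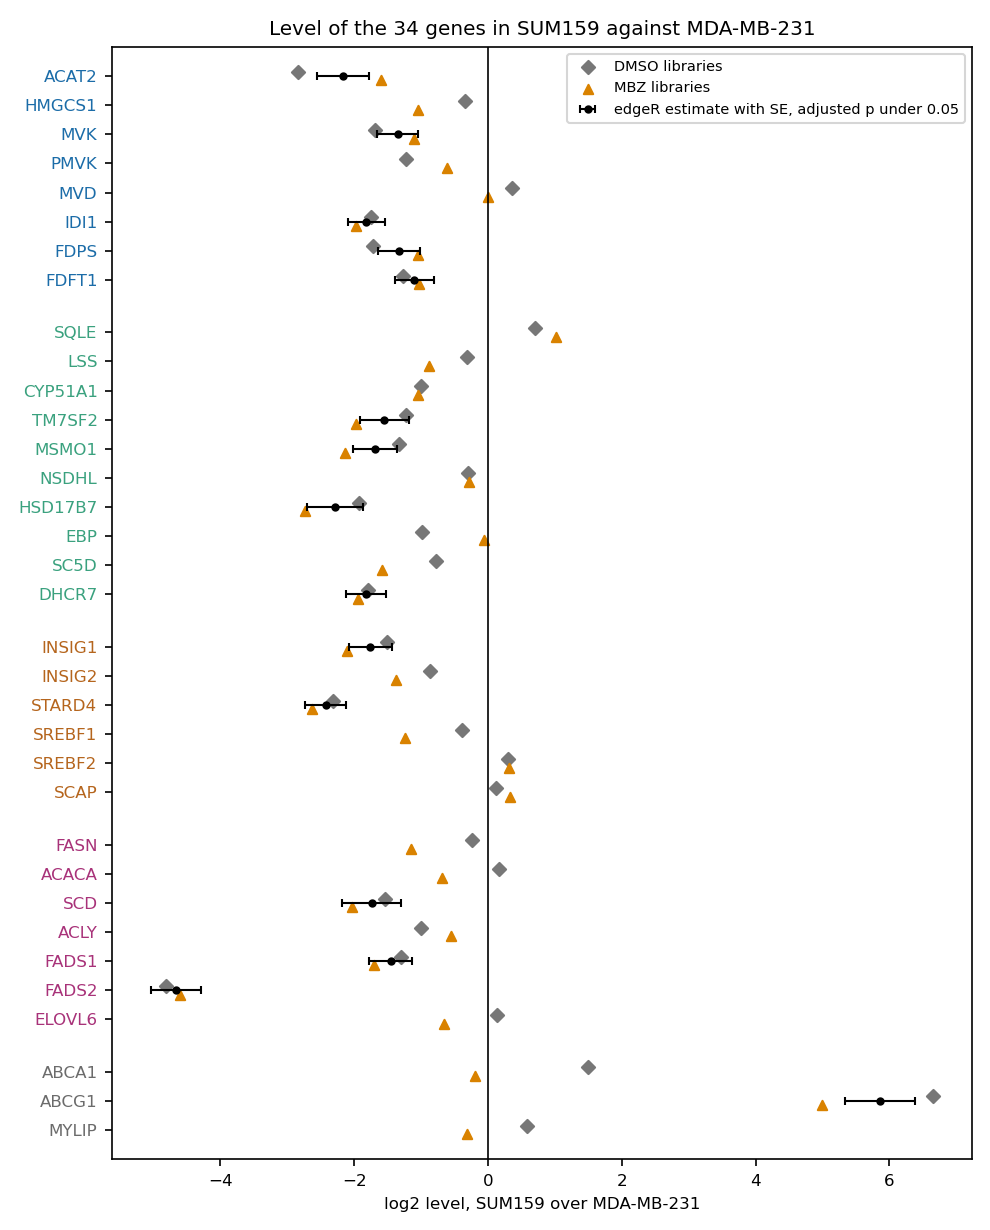
Log2 level of each gene in SUM159 over MDA-MB-231, between the DMSO libraries (grey diamonds) and between the MBZ libraries (orange triangles). Black points with bars give the edgeR estimate with its SE for the 15 genes with an adjusted p under 0.05, and 14 of these lie left of 0.

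Compared per length of exon within a library, SCD had the highest level of the 34 genes in all 4 libraries, at 1423 and 1381 TPM (a level scaled by exon length and library total) in MDA-MB-231 and 449.7 and 306 TPM in SUM159. SCD took 26.9% and 23.0% of the counts of the 34 genes in MDA-MB-231 with DMSO and with MBZ, and 17.3% and 13.3% in SUM159. The lowest level was that of ABCG1 in MDA-MB-231, at 0.416 and 0.754 TPM, and that of HSD17B7 in SUM159, at 3.28 and 3.33 TPM. FADS2 stood at 1.76 times FADS1 per length in MDA-MB-231 with DMSO and at 1.04 times with MBZ, but at 0.155 and 0.139 times in SUM159. INSIG1 stood at 9.40 and 15.3 times INSIG2 per length in MDA-MB-231 and at 6.04 and 9.25 times in SUM159. Each pair kept the same order within a line under DMSO and MBZ.

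Other genes of the same pathways were counted from lists. The counts stand beside 18.3% higher and 15.8% lower of all genes compared in MDA-MB-231, and 21.5% and 21.7% in SUM159. Of 14 genes of the isoprenoid branches, which use mevalonate for prenylation, dolichol and coenzyme Q, 3 were at least 1.5-fold higher and 2 lower in MDA-MB-231 and 3 higher and 1 lower in SUM159. PDSS1, which makes the side chain of coenzyme Q, had a log2 fold change of 1.73 (1.29 to 2.19) in SUM159 and -0.26 (-0.53 to 0.01) in MDA-MB-231. Of 12 genes of SREBP processing and sterol-linked degradation, MDA-MB-231 had 0 higher and 1 lower, with 1 higher and 2 lower in SUM159. MBTPS2, a protease that frees the SREBPs, had a log2 fold change of -1.16 (-1.31 to -1.001) in SUM159.

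Of 19 genes of sterol storage, transport and uptake, 17 were compared in MDA-MB-231, with 2 higher and 4 lower, and 19 in SUM159, with 3 higher and 8 lower. NCEH1, which hydrolyses cholesterol esters, had a log2 fold change of 1.44 (1.23 to 1.66) in SUM159, and TMEM97, a sterol-regulated membrane protein gene, had -1.20 (-1.35 to -1.05) in MDA-MB-231. Of 21 further genes of fatty acid synthesis, elongation and activation, MDA-MB-231 had 3 higher and 3 lower, with 0 higher and 4 lower in SUM159. SCD5, a second stearoyl-CoA desaturase gene, was lower in both lines, at -1.47 (-1.60 to -1.34) and -1.69 (-2.26 to -1.16). Of 7 genes of LXR, its partners and further targets, 0 were higher in either line, while 2 were lower in MDA-MB-231 and 4 in SUM159. NR1H3, the gene of LXR alpha, had a log2 fold change of -1.81 (-1.99 to -1.63) in SUM159, and RXRA, its partner, -0.88 (-0.96 to -0.80) in MDA-MB-231 and -1.07 (-1.15 to -0.996) in SUM159. Of 13 genes of fatty acid oxidation, MDA-MB-231 had 0 higher and 1 lower, with 1 higher and 6 lower in SUM159, among them CPT1A, the entry step into mitochondria, at -0.98 (-1.14 to -0.83).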

How the data were processed

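Total RNA of 4 cultures was poly-A selected and sequenced as paired reads. The authors mapped the reads to GRCh38 (hg38) with STAR 2.5 and counted them per gene with HTSeq 0.6.1, and they deposited whole-number counts for 58735 genes without normalization. The submitters' notes also name edgeR 3.16.5. The annotation release and the strand setting are not given in the sources used here. Ensembl identifiers gave 58207 genes a symbol, and exons and overlaps are those of GENCODE release 44. Groups came from the labels, and no column was left out.

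The members and lists were chosen with earlier results of these data known. All 34 members are named. From the other lists, only the genes with the highest and lowest log2 fold change in each line among those averaging at least 100 counts may be named. Fold changes within a line used edgeR 4.0.16 in R 4.3.3, as log2 CPM with TMM scaling over the libraries of the line and a prior count of 0.125. A gene averaging at least 10 counts was called past a fold change of 1.5. The 95% intervals were made from the exact binomial (Clopper-Pearson) interval for the MBZ library's share of the reads of a gene. They cover counting error only, because there was 1 library per condition. PCR copies of a molecule were counted as separate reads, so the intervals may be too narrow. Intervals of the difference between lines are Wald intervals from Poisson counts.

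The quasi-likelihood test of edgeR was used for changes common to both lines and for levels between the lines (cell line and treatment, filterByExpr, Benjamini-Hochberg adjustment over 16100 genes). The common BCV was 0.323. These p-values measure only the spread between these 4 libraries. TPM used exon lengths and compared genes within a library. DESeq2 1.42.0, other scalings, filters, folds and preset BCVs were alternatives. The functions were tested on simulated data. Figures were drawn with matplotlib 3.10.9 in Python 3.11.15.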

Additional observations from a re-analysis of the deposited data

Results flagged for a closer look

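For 10 of the 34 genes the counting intervals of the response to MBZ lay on opposite sides of 0 in the lines, in 5 of them below 0 in MDA-MB-231 and above 0 in SUM159 cells and in 5 the reverse. Of all genes compared in both lines, 20.01% did so. Scaling by total counts raised the MDA-MB-231 values of ACAT2 (0.085), MVK (0.0069) and ACLY (0.0035) above 0. The intervals of these 3 genes in MDA-MB-231, of EBP in MDA-MB-231 (-0.21 to 0.01) and of LSS in SUM159 (-0.13 to 0.01) then spanned 0, so 5 of the 10 genes kept intervals on opposite sides. The values are the log2 fold change in SUM159 cells minus that in MDA-MB-231 cells. Those above 0 were 1.27 for ACAT2, 0.94 for EBP, 0.69 for FDPS, 0.60 for MVK and 0.46 for ACLY. Those below 0 were -1.67 for ABCA1, -0.88 for FASN, -0.88 for MYLIP, -0.76 for ELOVL6 and -0.55 for LSS. With 1 library per condition these differences were not tested, and the intervals cover counting error only.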

How the results depend on the processing

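The tested model is blocked by cell line, which pairs the MBZ and DMSO libraries of a line. With 1 library per condition, leaving out any of them would leave no residual degrees of freedom, so none was left out. Scaling by total counts alone raised the median of all genes by 0.27 (log2) in MDA-MB-231 and 0.30 in SUM159. The median of the 34 genes then became 0.25 and 0.17, and the counts of genes past 1.5-fold became 12 higher and 1 lower in MDA-MB-231, 11 higher and 3 lower in SUM159, 5 higher and 0 lower in both lines and 1 in opposite directions. In MDA-MB-231 this scaling reversed the medians of the fatty acid genes (0.0035), the mevalonate genes (0.13) and the regulators (0.095). It reversed the log2 fold changes of ACAT2 (0.085), MVK (0.0069), ACLY (0.0035) and FADS1 (0.10) there, and in SUM159 that of DHCR7 (0.15). Values whose counting intervals had spanned 0 also went above 0. These were PMVK, TM7SF2, NSDHL, DHCR7 and INSIG2 in MDA-MB-231 and MVD, FDFT1, MSMO1, NSDHL and HSD17B7 in SUM159. TMM over all 4 libraries gave 1 gene, ABCG1, in opposite directions. DESeq2 size factors gave 5 genes higher in SUM159 and 1 lower in both lines. At a fold change of 2 MDA-MB-231 had 3 higher and 0 lower, with 1 higher and 3 lower in SUM159, and 0 higher and 0 lower in both. No share of all genes is given here at this fold or with DESeq2 size factors, so these counts have no background beside them. Where the counting interval alone was used, the counts were 15 and 13, 13 and 16, 7 and 7, with 10 in opposite directions. For the 7 and 7 in both lines no share of all genes is given here. edgeR's exact test, with an adjusted p of 0.005 and a log2 fold change of 1, gave 0 of each at a preset BCV of 0.2 and of 0.4, where unadjusted p-values were not counted. The filters on low counts and a prior count of 2 kept every count within 1.5 times.

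The shared test called 0 of the 34 genes under its 4 alternatives, while it called 100 genes of 14321 with DESeq2, 298 of 32295 with every gene of at least 1 count, 1 with RLE scaling and 0 without cell line. The lowest edgeR adjusted p of a member over these was 0.307, for HMGCS1. The levels between the lines kept their calls under 4 alternatives, except that SC5D (edgeR adjusted p = 0.0155) and INSIG2 (edgeR adjusted p = 0.0267) also passed with every gene of at least 1 count. The last 8 letters of the SREBP motif were found for 7 genes and the full motif for 1. Depth limits ABCG1 in MDA-MB-231 and HSD17B7 in SUM159.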
